A study of Mus musculus with 24 samples.

Results

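The 10 genes described here code for chondroitin sulfate proteoglycans of the brain matrix and for the proteins that tie them together in perineuronal nets. They are the lecticans Acan (aggrecan), Bcan (brevican), Ncan (neurocan) and Vcan (versican), the link proteins Hapln1 and Hapln4, the tenascins Tnr and Tnc, the receptor phosphatase Ptprz1 (phosphacan) and Cspg5 (neuroglycan C). They were chosen by symbol, all 10 were found among the 36333 genes of the expression table, and all 10 were among the 17267 genes that passed the filter on low values.

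RNA was measured in 24 male mice at 5 days post injury (5 dpi), with 1 library per mouse. TBI was set by controlled cortical impact (CCI), a piston strike on the exposed right parietal cortex, whereas sham mice had surgery without craniotomy or impact. The labels give the strain as C57BL6N and the age as 12 to 16 weeks for every mouse, whereas the methods name C57BL/6JRj mice and a narrower range of ages. Groups were vehicle (TBI, vehicle chow and saline, 5 mice), PLX3397 (TBI, an inhibitor of the microglial survival receptor CSF1R at 290 mg/kg of food from 90 min after CCI, 5 mice), Anakinra (TBI, a blocker of the interleukin 1 receptor IL1R1 at 100 mg/kg s.c. at 5 min, 24, 48 and 72 h, 5 mice), PLX3397+Anakinra (TBI, both drugs, 5 mice) and sham (no injury, vehicle, 4 mice). Values are TPM, a transcript abundance scaled to gene length and to the same sum in each library, so that levels can be set side by side between genes. Each value belongs to bulk tissue, in which fewer cells of a type and less RNA per cell cannot be told apart.

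The labels name the tissue as cortex, while the methods describe a larger block around the lesion. Marker genes of striatum summed to between 875 and 1504 TPM per mouse, against 743 to 1447 TPM for cortical markers, and markers of thalamus and hippocampus were present in every library as well. All vehicle mice, and no others, carry a letter B in their animal number, and what it stands for cannot be told apart from the vehicle treatment. One vehicle mouse, J17B, stood at the lowest summed level of its group for markers of astrocytes, microglia, activated phagocytes and fibroblasts. It stood at the highest for markers of neurons, mature oligodendrocytes, cortex and hippocampus.

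Lecticans are large core proteins whose attached chondroitin sulfate chains give the matrix its charge. Their N-terminal end binds hyaluronan, a long sugar polymer made at the cell surface, and a link protein locks each lectican onto it, while tenascin-R crosslinks the C-terminal ends of several lecticans. Around fast-spiking parvalbumin interneurons this lattice condenses into perineuronal nets, and after injury reactive astrocytes and oligodendrocyte progenitors deposit chondroitin proteoglycans around the lesion, where they are known to hold back axon growth. Ptprz1 and Cspg5 carry chondroitin sulfate on membrane proteins, and Tnc is a matrix protein of development and of wounds.

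In the mouse genome (GRCm38, GENCODE M21) each lectican gene lies beside a gene of the link protein family, with no protein-coding gene between them. Acan (chr7:79053483-79115099, + strand) and Hapln3 end 2 bp apart, Ncan (chr8:70093085-70120873, - strand) and Hapln4 (chr8:70083457-70090862, + strand) lie 2222 bp apart, and Bcan (chr3:87987531-88000230, - strand) and Hapln2 lie 21519 bp apart. Vcan (chr13:89655312-89742509, - strand) and Hapln1 (chr13:89539796-89611652, + strand) lie 43659 bp apart. Except for Bcan and Hapln2, which run in tandem, the pairs point toward each other. The other members are Tnr (chr1:159523769-159931729, + strand), Tnc (chr4:63959785-64047015, - strand), Ptprz1 (chr6:22875502-23052916, + strand) and Cspg5 (chr9:110243783-110262576, + strand). GENCODE lists genes on the opposite strand over Vcan, Tnr, Tnc, Hapln1 and Cspg5, and those over Vcan and Tnr include a gene typed as antisense. Whether reads were counted by strand is not given in the sources used here.

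Start-site sequence is shown for 3 members that rose after injury (Tnc, Tnr and Ncan) and for Acan, which was not called, because their windows held at least 200 bases ahead of every annotated start. RefSeq promoter windows of GRCm38.p6, 250 bases before to 50 after a start, were matched for 8 of the 10 genes, and Hapln4 and Cspg5 had none. Each stretch is written 5′ to 3′ on the strand of its gene, and capitals mark a TATA box (TATAAA), an SP1 box (GGGCGG), an AP-1 site (TGANTCA) or a STAT site (TTCNNNGAA) on either strand.
Tnc, chr4:64047016-64047265, - strand: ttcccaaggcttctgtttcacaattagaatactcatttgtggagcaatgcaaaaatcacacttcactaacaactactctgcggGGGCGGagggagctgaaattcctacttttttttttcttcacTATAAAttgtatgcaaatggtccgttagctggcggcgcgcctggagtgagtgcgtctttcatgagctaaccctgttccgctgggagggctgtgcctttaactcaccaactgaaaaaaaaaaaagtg
Tnr, chr1:159523519-159523728, + strand: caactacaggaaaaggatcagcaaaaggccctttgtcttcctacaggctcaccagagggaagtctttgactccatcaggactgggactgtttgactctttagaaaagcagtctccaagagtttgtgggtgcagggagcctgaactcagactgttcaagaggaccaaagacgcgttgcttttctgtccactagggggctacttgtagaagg
Ncan, chr8:70120874-70121094, - strand: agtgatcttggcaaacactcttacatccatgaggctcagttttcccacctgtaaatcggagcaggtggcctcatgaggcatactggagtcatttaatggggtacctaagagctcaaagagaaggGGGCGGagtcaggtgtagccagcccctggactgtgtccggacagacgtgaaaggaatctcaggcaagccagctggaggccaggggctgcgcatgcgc
Acan, chr7:79052976-79053225, + strand: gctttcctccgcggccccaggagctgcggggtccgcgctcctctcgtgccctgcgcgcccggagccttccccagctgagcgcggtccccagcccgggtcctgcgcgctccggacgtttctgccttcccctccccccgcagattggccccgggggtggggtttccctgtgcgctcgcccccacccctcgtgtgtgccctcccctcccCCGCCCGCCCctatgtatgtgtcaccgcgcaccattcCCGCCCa
The Tnc stretch holds a TATA box and an SP1 box and has a GC content of 44.8%. The Acan stretch holds 3 matches to the SP1 box, of which 2 overlap, at a GC content of 74.4%. The Ncan stretch holds 1 SP1 box, and the Tnr stretch holds no match to the 4 motifs. Over all 32851 windows, a TATA box was present in 13.6%, an SP1 box in 35.7%, an AP-1 site in 7.8% and a STAT site in 8.3%. In the full windows of the 8 matched members no AP-1 or STAT site was found, which says only that these letters are not there.

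In sham mice the levels of the 10 genes spanned from Acan at 2.75 ± 0.24 TPM to Cspg5 at 211 ± 14.8 TPM (mean ± SD, n = 4). Bcan (164 ± 9.51 TPM) and Hapln4 (151 ± 4.08 TPM) followed Cspg5, then Ncan (95.9 ± 3.98 TPM), Ptprz1 (69.7 ± 4.08 TPM) and Tnr (57.4 ± 5.01 TPM). Hapln1 (10.5 ± 1.10 TPM), Vcan (5.53 ± 0.39 TPM) and Tnc (2.90 ± 0.51 TPM) were low, and the ranges of Tnc and Acan overlapped. The order changed with injury. In vehicle mice Ncan (121 ± 8.44 TPM) and Ptprz1 (114 ± 6.67 TPM) stood above Hapln4 (83.6 ± 7.21 TPM), and Tnc (10.99 ± 3.40 TPM) and Vcan (12.4 ± 1.46 TPM) had come close to Hapln1 (16.7 ± 1.83 TPM).

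**Figure D1:**
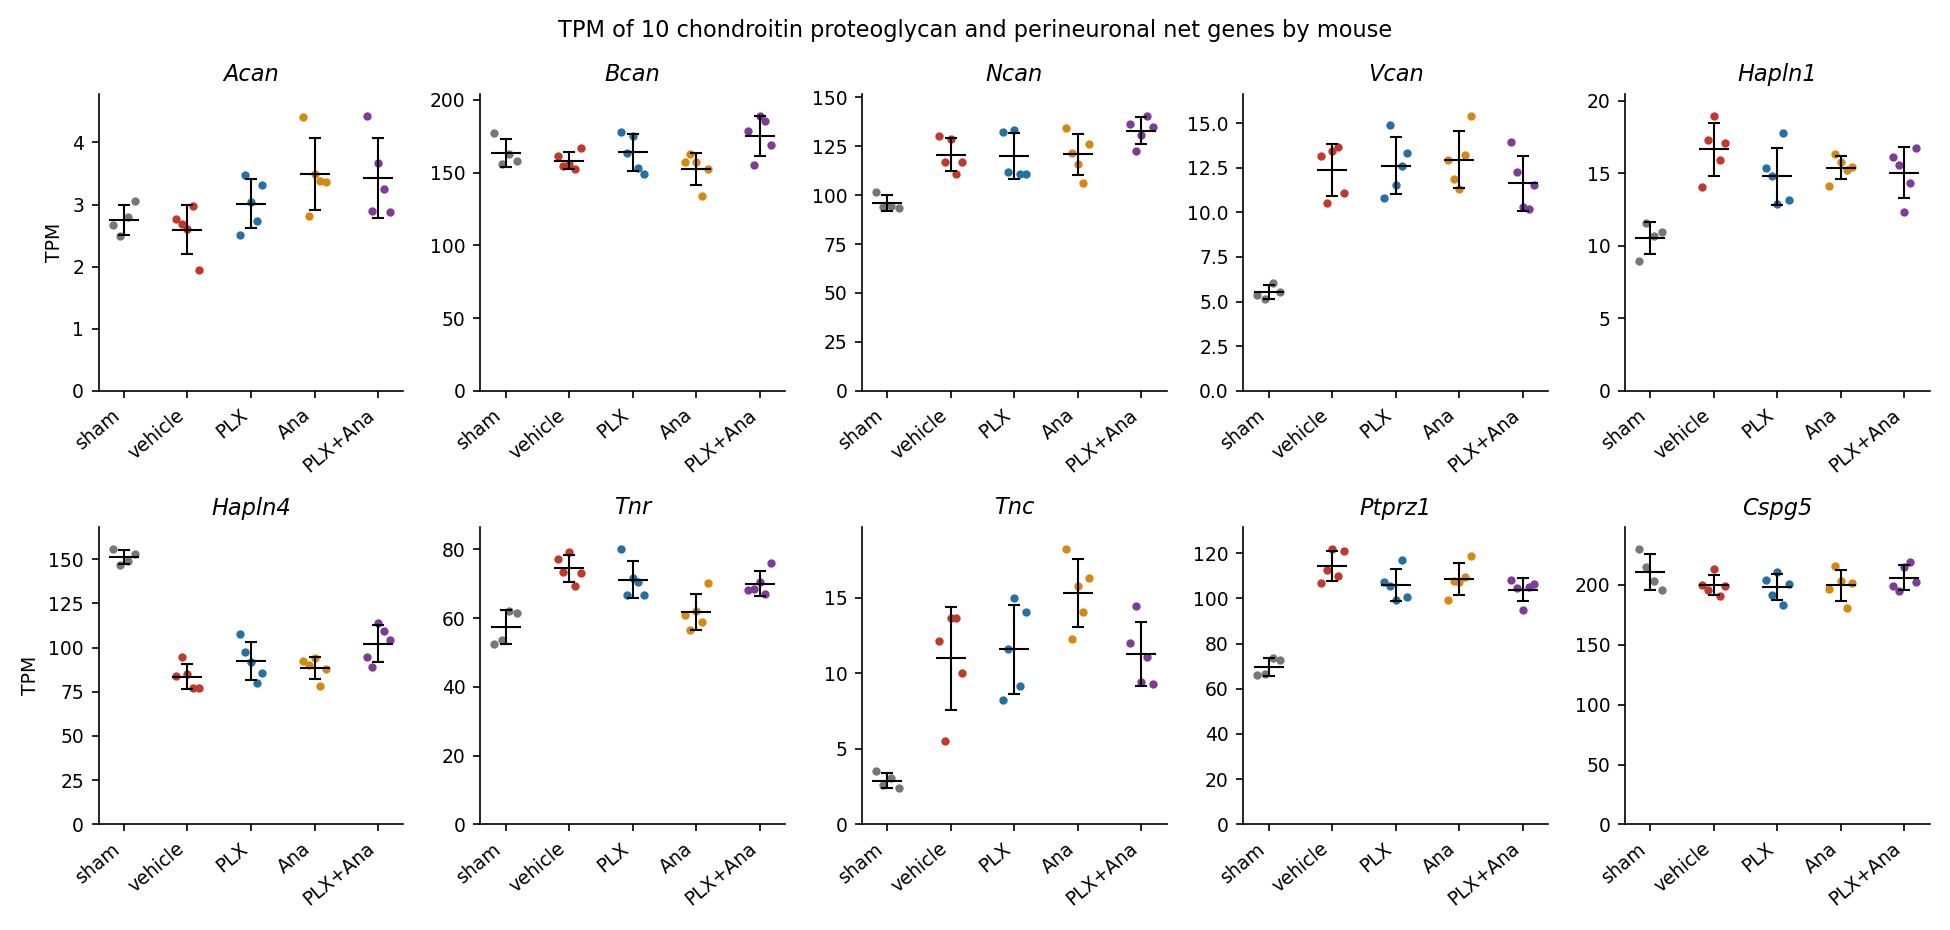
TPM of the 10 genes in each of the 24 mice (points) with group mean and SD (bars), 1 panel per gene and an axis from 0; PLX is PLX3397 and Ana is Anakinra. The 4 sham mice lie below all 20 injured mice for Tnc, Vcan, Ptprz1, Hapln1 and Ncan and above all of them for Hapln4.

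The first comparison, vehicle with sham, asks what injury did without a drug. Among the 10 genes, 6 rose (Tnc, Vcan, Ptprz1, Hapln1, Tnr and Ncan), Hapln4 fell, and Acan, Bcan and Cspg5 were not called. Calls are at a Benjamini-Hochberg adjusted p below 0.05 over all genes tested in limma. Over all genes, 26.6% were called higher and 27.7% lower in this comparison, so that a call by itself was common. The median difference of the 10 genes was 0.35 on the log2(TPM + 1) scale, against -0.01 for all genes tested.

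Tnc, the tenascin of wounds and of development, rose most. Its levels in sham mice were 3.55, 2.60, 3.07 and 2.40 TPM, and in vehicle mice 12.2, 5.50, 13.6, 13.6 and 10.03 TPM. The lowest vehicle mouse was J17B, and it still stood above every sham mouse. The difference was 1.57 on the log2 scale (SE 0.19, adjusted p = 2.2e-07), and 1.77 (adjusted p = 1.3e-09) without J17B.

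Vcan, the lectican with the widest distribution outside the nervous system, rose from 5.35, 5.16, 6.06 and 5.54 TPM in sham mice to 13.1, 10.5, 13.4, 13.7 and 11.1 TPM in vehicle mice, with no overlap. Its difference was 1.03 on the log2 scale (SE 0.10, adjusted p = 4.3e-09). Ncan, the lectican made mainly by neurons and astrocytes, rose by less. Its levels were 102, 94.0, 94.5 and 93.2 TPM in sham mice and 130.3, 117, 129, 111 and 117 TPM in vehicle mice, and the difference was 0.33 (SE 0.07, adjusted p = 2.2e-04). Tnc and Vcan were the members that also met the limits the study set for a differentially expressed gene, an unadjusted p below 0.05 with a fold above 2 and a difference above 4 TPM, as 5.26% of all genes did. They were also the members that met these limits against sham with PLX3397 (3.66% of all genes), Anakinra (5.29%) and PLX3397+Anakinra (2.9%). No member met them for both drugs against vehicle (1.65% of all genes) or against Anakinra (1.57%).

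The remaining lecticans were not called. Bcan, the most abundant lectican, was at 177, 156, 163 and 158 TPM in sham mice and at 161, 155, 156, 153 and 167 TPM in vehicle mice, and its difference had a 95% confidence interval from -0.18 to 0.08 on the log2 scale (adjusted p = 0.55). Acan, the lectican most closely tied to perineuronal nets, was at 2.68, 2.49, 2.79 and 3.05 TPM in sham mice and at 2.77, 2.69, 2.60, 2.98 and 1.95 TPM in vehicle mice. The interval of its difference, from -0.30 to 0.16 (adjusted p = 0.64), was wider.

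The link proteins moved in opposite directions. Hapln4, a brain link protein of perineuronal nets, stood at 156, 147, 149 and 153 TPM in sham mice and at 83.7, 94.7, 85.3, 77.0 and 77.3 TPM in vehicle mice. The groups were far apart, with a difference of -0.85 on the log2 scale (SE 0.08, adjusted p = 1.6e-09). Hapln1, the link protein that is shared with cartilage, rose from 8.97, 11.5, 10.7 and 10.96 TPM to 14.1, 17.3, 18.98, 15.9 and 17.1 TPM, a difference of 0.61 (SE 0.09, adjusted p = 5.7e-06). Hapln2, a link protein of myelinated axons at nodes of Ranvier that is not among the 10 genes, rose by 0.45 (SE 0.06, adjusted p = 4.4e-07). Hapln3, at 0.58 TPM in sham and 0.72 TPM in vehicle mice, was not called (adjusted p = 0.41).

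Tnr, the tenascin that crosslinks lecticans in nets and is made by the oligodendrocyte lineage and some interneurons, was at 52.6, 53.6, 62.1 and 61.4 TPM in sham mice and at 77.3, 73.4, 79.1, 69.5 and 73.0 TPM in vehicle mice. The ranges did not overlap, and the difference was 0.37 (SE 0.06, adjusted p = 2.7e-05). Ptprz1, a receptor phosphatase whose secreted form is phosphacan, rose from 65.9, 66.4, 73.5 and 72.9 TPM to 107, 112, 122, 109.8 and 121 TPM. This difference of 0.71 (SE 0.06) had the smallest adjusted p among the 10 genes, 1.1e-10. Cspg5, a membrane proteoglycan of the nervous system and the most abundant member, was at 229.8, 215, 203 and 196 TPM in sham mice and at 200.2, 195, 213, 191 and 199 TPM in vehicle mice. The interval of its difference ran from -0.19 to 0.03 (adjusted p = 0.23).

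Within neighbouring gene pairs, both Vcan and Hapln1 rose, whereas Ncan rose and Hapln4, 2222 bp away, fell. Bcan was not called while its neighbour Hapln2 rose, and neither Acan nor Hapln3 was called.

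**Figure D2:**
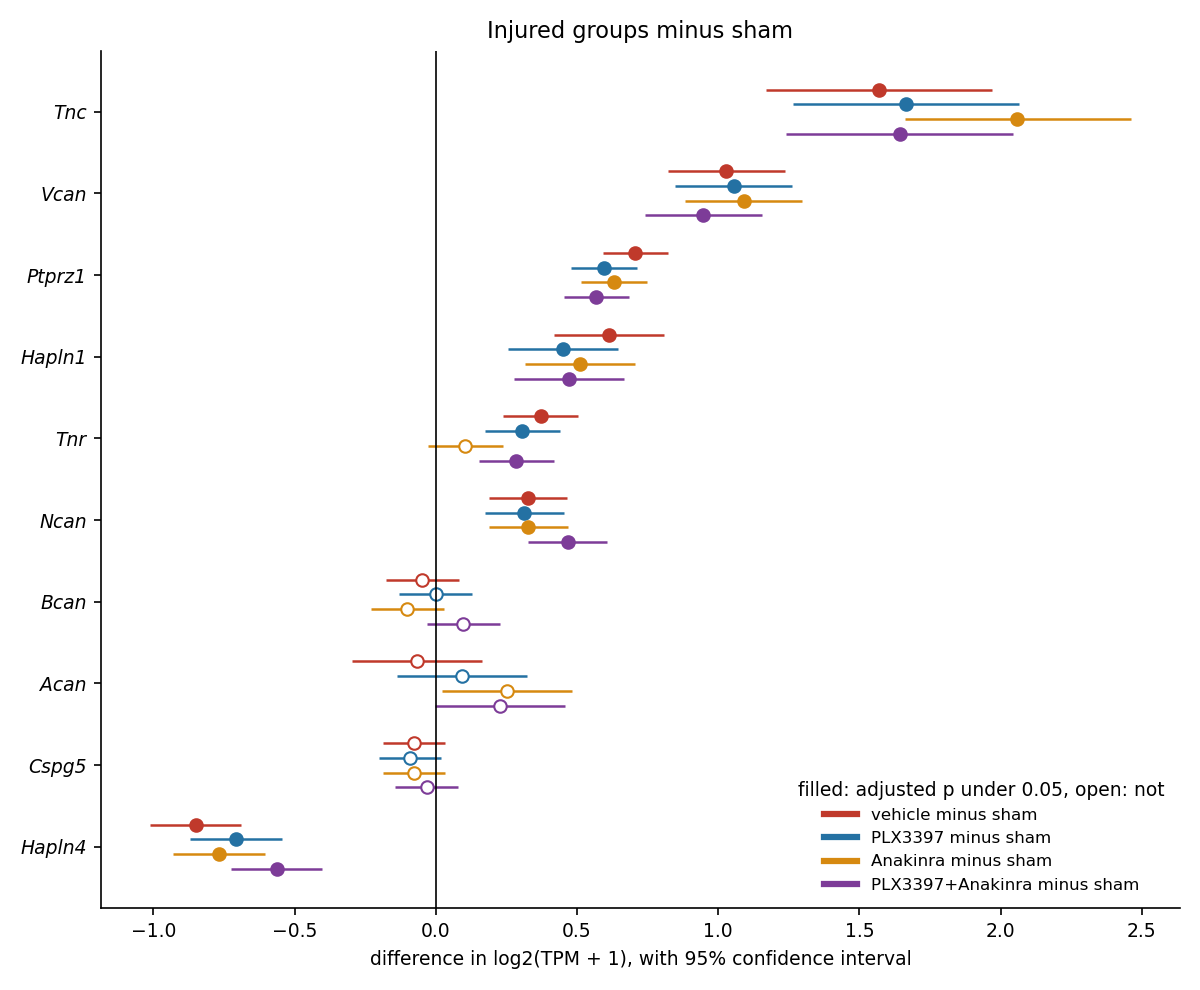
Difference in log2(TPM + 1) of each injured group minus sham for the 10 genes, with 95% confidence intervals from limma. Filled points are called at an adjusted p below 0.05. Tnc and Vcan lie farthest to the right, with Tnc at 1.57 to 2.06, and Hapln4, called lower in all 4 comparisons, lies at -0.85 to -0.56.

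The same shift was seen as a change in composition. As shares of the summed TPM of the 4 lecticans, Bcan made up 61.1% ± 0.50 (SD, n = 4) in sham mice and 53.9% ± 1.76 (SD, n = 5) in vehicle mice. The share of Ncan was 35.8% ± 0.46 in sham and 41.0% ± 1.59 in vehicle mice, and that of Vcan 2.07% ± 0.18 and 4.21% ± 0.51. Among the link proteins, Hapln4 held 75.2% ± 0.55 in sham mice and 54.2% ± 2.66 in vehicle mice, while Hapln2 held 19.2% ± 0.39 and 34.5% ± 2.26, and Hapln1 5.26% ± 0.64 and 10.8% ± 0.96. The summed levels were not tested. The lecticans together were at 258 to 287 TPM in sham mice and 280 to 307 TPM in vehicle mice, ranges that overlap, whereas link proteins together were at 196 to 205 TPM in sham mice and 148 to 163 TPM in vehicle mice. Of the summed TPM of Tnc and Tnr, without other tenascins, Tnc made up 4.85% ± 1.06 in sham mice and 12.8% ± 3.59 in vehicle mice. In every injured mouse the share of Hapln4 among link proteins lay between 52.1% and 62.3%, below the lowest sham mouse at 74.8%.

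**Figure D3:**
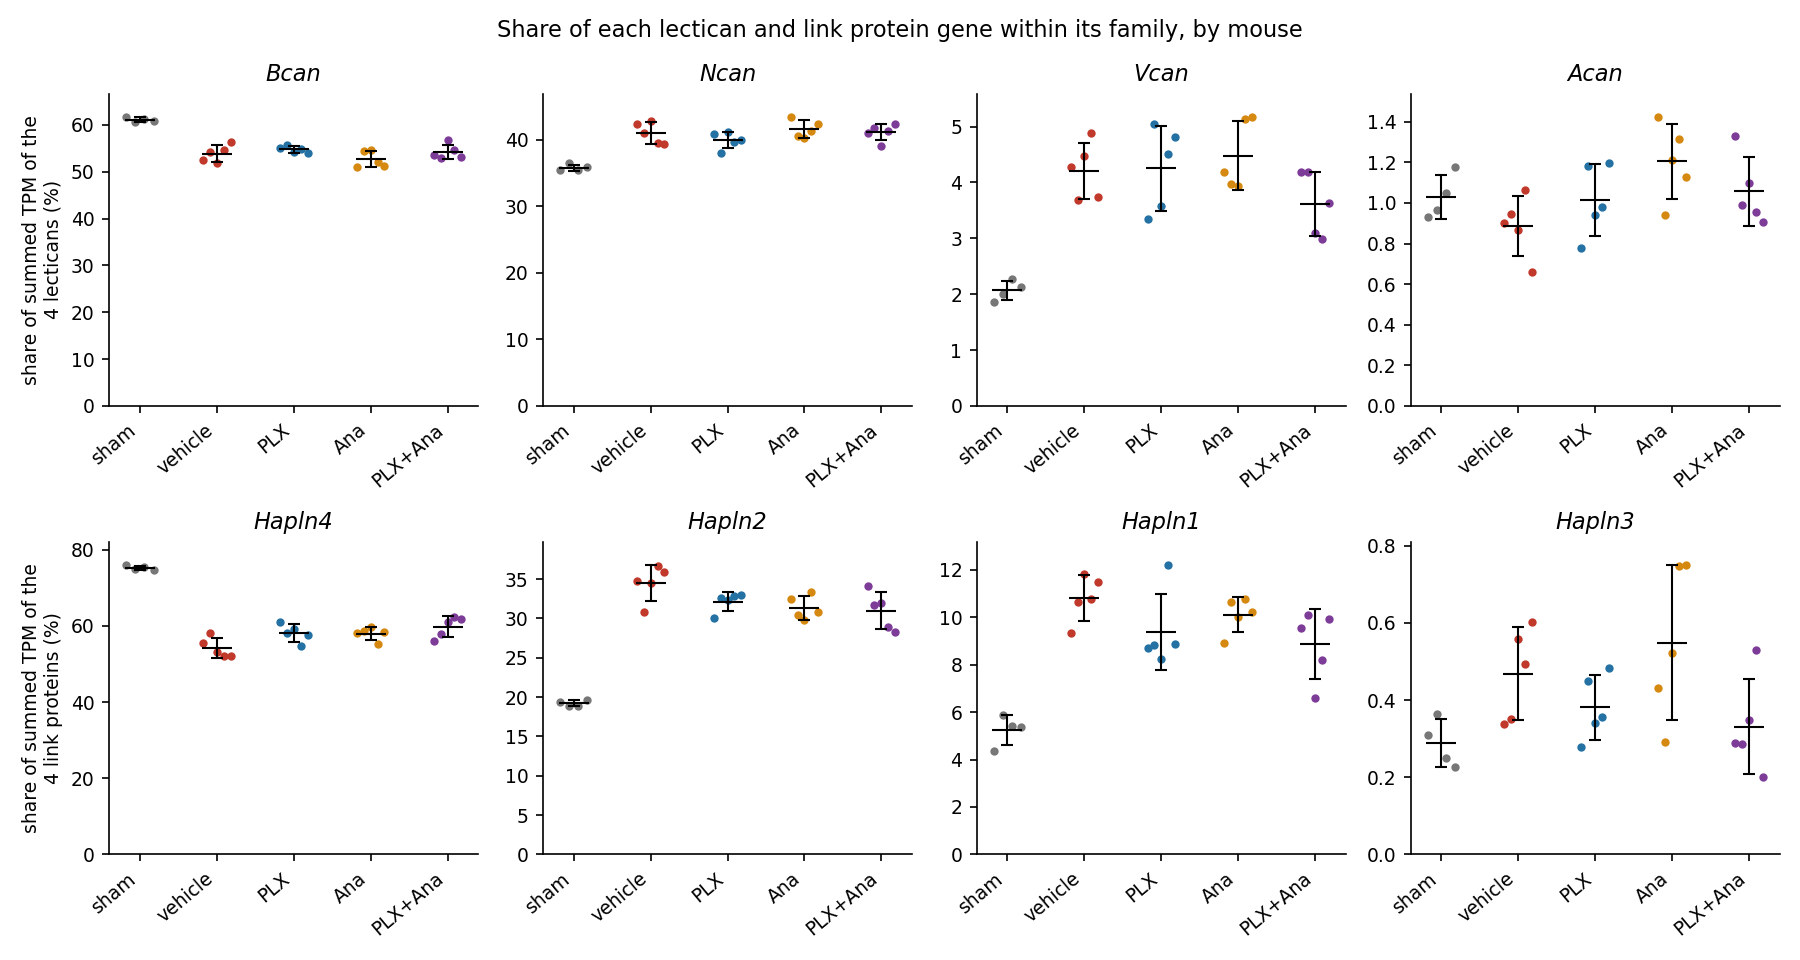
Share of each gene in the summed TPM of the 4 lecticans (top) and of the 4 link proteins (bottom), in percent, for each mouse (points) with group mean and SD (bars). Bcan and Hapln4 hold smaller shares in all injured mice than in the 4 sham mice, and Vcan, Ncan, Hapln2 and Hapln1 hold larger ones.

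Each drug group was also compared with sham. These comparisons share the 4 sham mice, so that they are not independent. With PLX3397 the same 6 genes were higher and Hapln4 lower, against 22.7% of all genes higher and 22.5% lower. With PLX3397+Anakinra it was again these 6 higher and Hapln4 lower, against 20.7% and 18.1%. With Anakinra 5 genes were higher and Hapln4 lower, against 25.1% and 29.2% of all genes. Tnr was the gene without a call there. Its levels in Anakinra mice were 61.0, 56.5, 62.2, 58.9 and 70.3 TPM, which overlap the sham mice, and its difference from sham was 0.10 (SE 0.06, adjusted p = 0.18). With libraries rescaled by median ratios the Tnr difference was 0.14 and was called (adjusted p = 0.037), as was that of Acan, at 0.28 (adjusted p = 0.040) in place of 0.25 (adjusted p = 0.059).

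The differences of the called genes from sham ranged as follows over the 4 injured groups. Tnc was 1.57 to 2.06 above sham on the log2 scale, Vcan 0.95 to 1.09 and Ptprz1 0.57 to 0.71. Hapln1 was 0.45 to 0.61 above sham and Ncan 0.31 to 0.47, while Hapln4 was lower by 0.56 to 0.85. For Tnr the range was 0.10 to 0.37. Over the 5 groups together, limma's F-test called 8 of the 10 genes, against 51.9% of all genes. Bcan (adjusted p = 0.065) and Cspg5 (adjusted p = 0.50) were not called, and Acan was close to the threshold (adjusted p = 0.047).

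The next comparisons ask whether a drug changed these levels in injured brain. PLX3397 against vehicle called 0 of the 10 genes in limma, whereas 9.89% of all genes were called. At an unadjusted p below 0.05 there was 1 (Ptprz1), against 22.8% of all genes. Anakinra against vehicle called 0 of the 10 genes and 0.116% of all genes. At an unadjusted p below 0.05 there were 3 (Tnr, Acan and Tnc), against 12.4% of all genes. PLX3397+Anakinra against vehicle called 1 of the 10 genes, Hapln4, which was higher. In that comparison 7.88% of all genes were called higher. At an unadjusted p below 0.05 there were 5 members (Hapln4, Acan, Ptprz1, Bcan and Ncan), against 29.7% of all genes in either direction.

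Hapln4 in PLX3397+Anakinra mice was at 94.8, 89.1, 113.9, 109.2 and 104.4 TPM, against 83.7, 94.7, 85.3, 77.0 and 77.3 TPM in vehicle mice. The ranges met at 1 vehicle mouse, J17B, and all 5 mice with both drugs remained below the lowest sham mouse at 147 TPM. The difference from vehicle was 0.29 on the log2 scale (SE 0.07, adjusted p = 0.0080), and 0.33 (adjusted p = 0.0023) without J17B. With PLX3397 alone Hapln4 was at 107.5, 97.6, 92.1, 79.8 and 85.9 TPM, a difference from vehicle of 0.14 (SE 0.07, adjusted p = 0.26). With Anakinra alone it was at 92.3, 90.0, 94.1, 78.0 and 88.1 TPM, a difference of 0.08 (SE 0.07, adjusted p = 0.68). The interaction of the drugs on Hapln4 was 0.06 (SE 0.10, adjusted p = 0.89), so that its rise with both drugs was not shown to differ from the sum of the single drugs.

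Acan was at 4.43, 2.89, 3.67, 3.25 and 2.89 TPM in PLX3397+Anakinra mice and at 4.40, 2.82, 3.49, 3.38 and 3.36 TPM in Anakinra mice. The differences from vehicle were 0.29 (adjusted p = 0.054) and 0.32 (adjusted p = 0.20), with intervals from 0.08 to 0.51 and from 0.10 to 0.53. Neither passed the threshold, although the first was called when the variance was fitted without a trend (adjusted p = 0.046).

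Tnr was 0.27 lower with Anakinra than with vehicle (SE 0.06), and its ranges of 56.5 to 70.3 and 69.5 to 79.1 TPM met at a single Anakinra mouse, J22. The adjusted p of 0.070 did not pass the threshold. Without J22 the difference was -0.31 (adjusted p = 0.042), and leaving out vehicle mouse J19B or PLX3397 mouse J01 also gave a call. Tnc was at 18.2, 12.2, 15.8, 14.1 and 16.3 TPM with Anakinra, and 4 of these 5 values lay above the highest vehicle mouse. The difference from vehicle was 0.49 (SE 0.18, adjusted p = 0.26), and 0.29 (adjusted p = 0.48) without J17B.

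The other members were not called against vehicle, apart from the alternatives named below. Vcan differed by 0.03 with PLX3397 (interval -0.17 to 0.22), by 0.06 with Anakinra (-0.13 to 0.26) and by -0.08 with both (-0.28 to 0.11). Ptprz1 was -0.11 with PLX3397, -0.08 with Anakinra and -0.14 with both drugs (adjusted p = 0.21, 0.58 and 0.074), and the last was called after median-ratio rescaling (adjusted p = 0.034). Hapln1 was -0.16, -0.10 and -0.14, with adjusted p of 0.29, 0.66 and 0.31. Ncan was -0.01, 0.00 and 0.14, and Bcan 0.05, -0.05 and 0.15, without a call (adjusted p = 0.14 and 0.093 with both drugs). With both drugs the intervals of Ptprz1 (-0.25 to -0.03), Bcan (0.02 to 0.27) and Ncan (0.01 to 0.27) did not include 0. Nor did that of Ptprz1 with PLX3397 (-0.22 to -0.002). With both drugs, Bcan was called without PLX3397+Anakinra mouse J04 (0.19, adjusted p = 0.027), and Ptprz1 without vehicle mouse J01B (-0.16, adjusted p = 0.043). Cspg5 lay within -0.12 and 0.15 of vehicle in the intervals of all 3 comparisons.

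**Figure D4:**
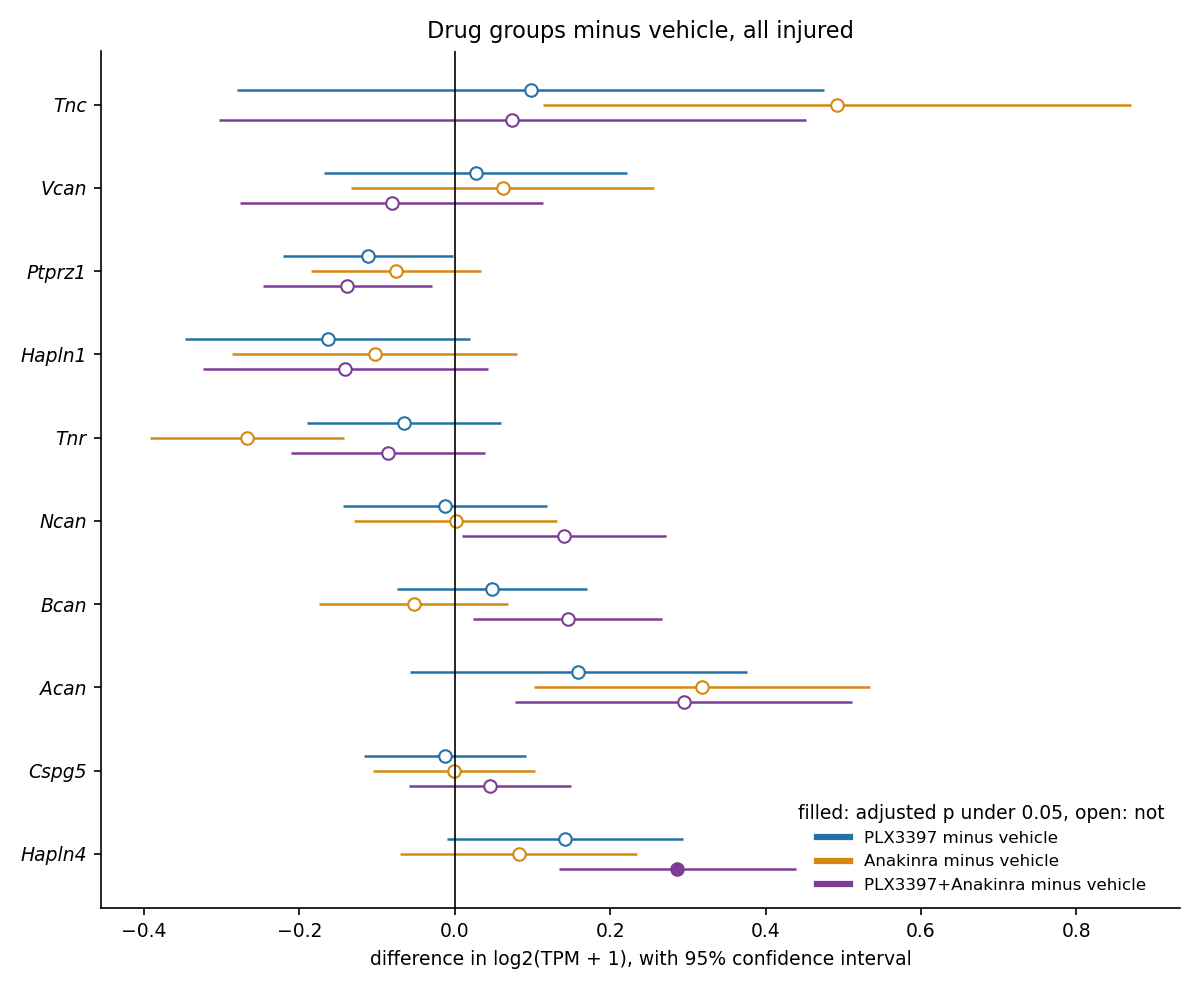
Difference in log2(TPM + 1) of each drug group minus vehicle for the 10 genes, all from injured mice, with 95% confidence intervals from limma. The filled point, called at an adjusted p below 0.05, is Hapln4 with PLX3397+Anakinra at 0.29; the open points lie between -0.27 and 0.49.

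Adding the second drug was compared with each single drug. PLX3397+Anakinra against PLX3397 called 0 of the 10 genes and 0.151% of all genes. At an unadjusted p below 0.05 there was 1 (Ncan), against 6.71% of all genes. PLX3397+Anakinra against Anakinra called Bcan as higher, against 4.67% of all genes higher, and 5 members had an unadjusted p below 0.05, against 27.9% of all genes. Bcan was at 178, 155, 189, 186 and 169 TPM with both drugs and at 157, 163, 157, 134 and 153 TPM with Anakinra, which overlap, and the difference was 0.20 (SE 0.06, adjusted p = 0.027). The call was lost after median-ratio rescaling (0.17, adjusted p = 0.080). It was lost too without Anakinra mouse J21 (0.15, adjusted p = 0.10), without PLX3397+Anakinra mouse J09 (0.17, adjusted p = 0.081) and without mouse J10 (0.18, adjusted p = 0.075). Hapln4 was 0.14 higher with both drugs than with PLX3397 (SE 0.07, adjusted p = 0.76) and 0.20 higher than with Anakinra (SE 0.07, adjusted p = 0.070). The difference from Anakinra was called without PLX3397 mouse J01 (adjusted p = 0.047) and without PLX3397+Anakinra mouse J04 (0.25, adjusted p = 0.026). Tnr was 0.18 higher with both drugs than with Anakinra (SE 0.06) and just missed the threshold (adjusted p = 0.0502). Tnc differed by -0.42 (SE 0.18, adjusted p = 0.13) and was called when these 2 groups were fitted alone (adjusted p = 0.033). The interaction of the drugs was called for 0 of the 10 genes in limma, as for 0% of all genes. At an unadjusted p below 0.05 it held 1 gene, Tnr (0.25, SE 0.09, adjusted p = 0.47), against 8.08% of all genes.

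Markers of several cell types moved with these groups. Over all genes, 26.6% were called higher and 27.7% lower in vehicle against sham. Against vehicle, 7.88% were higher with PLX3397+Anakinra, and 1150 of 17267 genes were lower with PLX3397. Of 10 astrocyte markers 10 rose in vehicle mice over sham, with a summed level of 1648 to 1806 TPM in sham and 4483 to 6031 TPM in vehicle mice. Of 8 oligodendrocyte progenitor markers 7 rose, and their sum went from 416 to 447 TPM in sham to 631 to 700.5 TPM in vehicle mice. Of 8 markers of mature oligodendrocytes 6 rose, from 5354 to 5835 TPM in sham to 6914 to 7576 TPM in vehicle mice. They summed to 6289 to 6978 TPM with Anakinra, which overlaps the vehicle mice. Of the 8, 0 were called there, against 0.116% of all genes. Tnr and Hapln2 were below their vehicle means with Anakinra, also without a call. With PLX3397 the sum was 7422 to 7983 TPM and 1 of the 8 was called higher, as were 557 of all 17267 genes. Tnr was not called with PLX3397 (-0.07). Of 8 fibroblast markers 7 rose, from 80.8 to 102 TPM in sham to 160 to 858 TPM in vehicle mice. Against vehicle, 4 of the 8 were higher with PLX3397 (565 to 1309 TPM) and 4 with PLX3397+Anakinra (809 to 1360 TPM). With Anakinra the sum was 927.5 to 1774 TPM, above every vehicle mouse, and none of the 8 was called. Of 9 neuronal markers 8 fell, from 6647 to 6999 TPM in sham to 4086 to 5033 TPM in vehicle mice. With PLX3397+Anakinra 4 of the neuronal markers were higher than in vehicle mice (5038 to 5345 TPM), as was Hapln4. Of 6 cortical markers 5 fell after injury, from 1244 to 1447 TPM in sham to 743 to 835 TPM in vehicle mice, and 4 were higher with PLX3397+Anakinra than with vehicle (935 to 1029 TPM). Microglial markers, 8 of 8 lower with PLX3397 than with vehicle, summed to 501 to 770.4 TPM and 1201 to 1526 TPM, while 0 of the 10 matrix genes were called in that comparison. The part of these cell types in the differences of the matrix genes was not tested.

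Genes that make, bind and cleave these proteoglycans were counted from lists by function. In vehicle against sham, 9 of 25 tested genes for chondroitin sulfate synthesis, sulfation and breakdown rose and 8 fell. Over all genes, 26.6% were called higher and 27.7% lower. The 25 genes had a median of 0.05 on the log2 scale, against -0.01 over all genes. Those that rose included Chst14 and Dse, which act in the formation of dermatan sulfate, from 2.65 to 7.25 TPM and from 4.16 to 8.89 TPM in group means (differences 1.17 and 0.93, adjusted p = 1.8e-07 and 3.1e-07). The lysosomal sulfatase Galns rose from 6.21 to 17.9 TPM (1.39, adjusted p = 6.8e-13) and the sulfotransferase Chst7 from 2.07 to 4.44 TPM (0.83, adjusted p = 6.0e-05). Both Chst7 and Galns were lower with PLX3397 than with vehicle (-0.50 and -0.32, adjusted p = 0.026 and 0.0081) and with PLX3397+Anakinra (-0.54 and -0.68, adjusted p = 0.0099 and 5.4e-07).

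Of 15 tested genes of hyaluronan synthesis, turnover and binding, 9 rose after injury and 2 fell, against 26.6% and 27.7% of all genes. The hyaluronan receptor Cd44 rose from 1.44 to 21.04 TPM (3.16, SE 0.12, adjusted p = 1.6e-16). With PLX3397+Anakinra, Cd44 was called lower than with vehicle, at a mean of 15.7 TPM. The scavenger receptor Stab1 rose from 8.58 to 105.8 TPM (3.45, SE 0.16, adjusted p = 9.4e-15), and the synthase Has2 rose from 0.16 to 1.29 TPM (0.95, adjusted p = 8.6e-06). The hyaluronan-binding gene Hmmr, which is also a mitosis gene, rose by 1.63 (adjusted p = 1.3e-09) and was 0.46 lower with both drugs than with vehicle (adjusted p = 0.025). Stab1 was lower by 1.39 with PLX3397 and by 1.71 with PLX3397+Anakinra (adjusted p = 5.9e-07 and 9.2e-09), and the hyaluronidase Hyal1 was 0.32 lower with PLX3397 (adjusted p = 0.024).

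Of 15 receptors and ligands of proteoglycans, 4 rose and 9 fell, against 26.6% and 27.7% of all genes. Midkine, Mdk, a growth factor that binds Ptprz1, rose from 19.5 to 40.4 TPM (0.99, adjusted p = 3.4e-08), and the integrin subunit Itgb8 rose by 0.55 (adjusted p = 8.1e-07). The Nogo receptor Rtn4r, which can bind chondroitin sulfate, fell from 116 to 61.4 TPM (-0.90, adjusted p = 2.5e-09), and its relative Rtn4rl2 from 30.8 to 17.98 TPM (-0.75, adjusted p = 1.3e-06). Both were higher with PLX3397+Anakinra than with vehicle (0.33 and 0.29, adjusted p = 0.0055 and 0.040). Of 8 genes, which are proteases that cut lecticans and their inhibitor Timp3, 5 rose and 2 fell. Timp3 was among the 5 that rose. Over all genes, 26.6% were called higher and 27.7% lower. Adamts1 rose from 8.28 to 20.8 TPM (1.22, adjusted p = 2.0e-10), Adamts9 by 0.79, Adamts5 by 0.49 and Adamts4 from 25.7 to 36.4 TPM (0.49), and none of the 8 was called with a drug against vehicle.

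Of 10 genes of net-bearing interneurons, 8 fell and Sox6 rose, against 27.7% and 26.6% of all genes. Their median was -0.45, against -0.01 over all genes. Of the 9 neuronal markers 8 fell, with a median of -0.39, and of the 6 cortical markers 5 fell, with a median of -0.73. The synaptotagmin Syt2 fell from 43.7 to 25.4 TPM (-0.77, adjusted p = 2.3e-08), and the potassium channel genes Kcnc2, Kcnc1 and Kcns3 fell by 0.65, 0.59 and 0.54. Kcnc2 was higher than in vehicle mice with PLX3397 (0.25, adjusted p = 0.024) and with PLX3397+Anakinra (0.36, adjusted p = 8.2e-04), and Syt2 with PLX3397+Anakinra (0.24, adjusted p = 0.037). Cspg4, the NG2 proteoglycan of oligodendrocyte progenitors and pericytes, rose after injury from 9.96 to 15.6 TPM (0.59, SE 0.10, adjusted p = 2.4e-05). It was lower than in vehicle mice with PLX3397 (-0.40, adjusted p = 0.0067) and with both drugs (-0.39, adjusted p = 0.0055), in comparisons in which Vcan and Ptprz1 were not called. Of the 8 oligodendrocyte progenitor markers, which include Cspg4, 4 were lower with PLX3397 (summed level 564 to 600 TPM) and 5 with both drugs (565 to 612 TPM) than in vehicle mice (631 to 700.5 TPM). Of all 17267 genes, 1150 were lower with PLX3397 and 1658 with both drugs. With Anakinra alone the sum was 548 to 615 TPM, also below every vehicle mouse. None of the 8 was called there, against 0.116% of all genes.

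**Figure D5:**
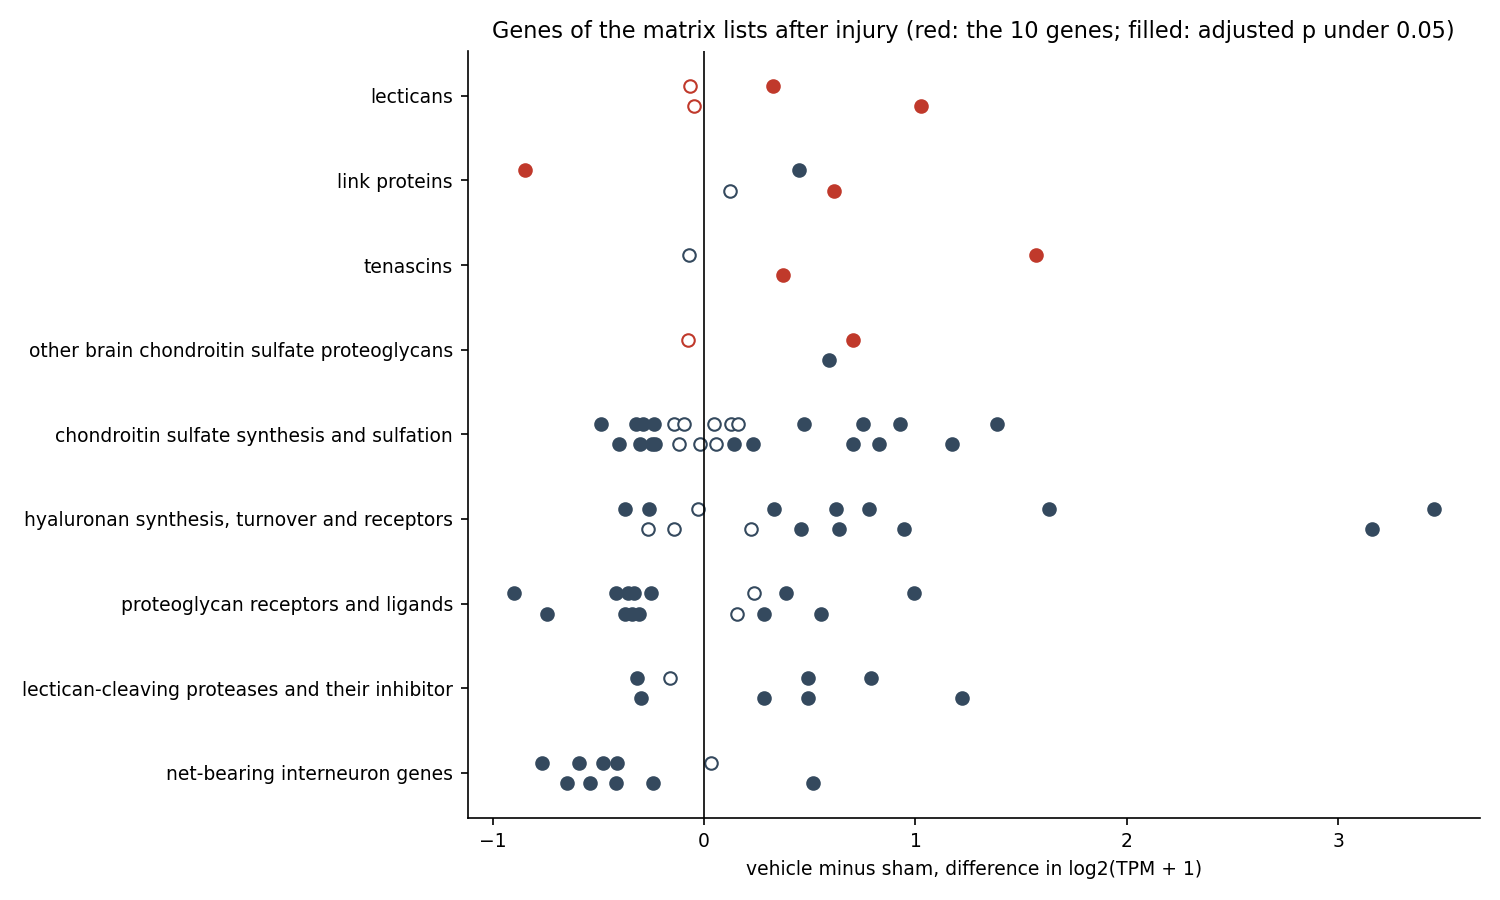
Difference in log2(TPM + 1), vehicle minus sham, for the tested genes of 9 matrix lists, 1 point per gene; red points are the 10 genes and filled points are called at an adjusted p below 0.05. Stab1 (3.45) and Cd44 (3.16) lie farthest right, and 8 of 10 interneuron genes are filled and left of 0.

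Within groups, the mouse-to-mouse variation of each gene was set beside that of 12514 other genes (mean TPM 5 or more), as Pearson's r of log2 values minus group means over 24 libraries, which share tissue block and library. For Tnc the most alike were Flna (0.91), Tubb6 (0.89) and Ptbp1 (0.88), and for Vcan Adam17 (0.92), Dse (0.90) and Ctsc (0.87). Genes that varied like Hapln4 included Lrfn1 (0.88) and Hcn3 (0.87), and Hapln1 was most like Lix1 (0.86), Tcf4 (0.86) and Ptn (0.85). For Bcan they were Wdtc1 (0.90), Cic (0.90) and Map7d1 (0.89), and for Ncan Osbpl5 (0.88), Rapgef1 (0.87) and Kcna6 (0.86). Tnr was most like Mpdz (0.86), Tnks (0.83) and Hmbox1 (0.83), and Ptprz1 like Stag1 (0.84), Rbm25 (0.83) and Ppp2r3a (0.82). Acan was most like Col6a3 (0.78), P3h1 (0.78) and Myo1e (0.74), and Cspg5 like Slc9a3r2 (0.85), Gna11 (0.85) and Ano8 (0.84). Among the 10 genes themselves the highest values were between Hapln1 and Ptprz1 (0.75), Bcan and Cspg5 (0.71) and Bcan and Ncan (0.71), and the lowest was between Vcan and Hapln4 (-0.47).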

How the data were processed

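The authors sequenced poly(A) RNA in paired ends, mapped it with CLC Genomics Workbench (build mm10) and deposited TPM for 36333 genes. The full table was used throughout, and 0 of its columns lacked a sample. A deposited table of rounded TPM served as an alternative, and a filtered table with the authors' p-values was not used. No counts were given, so depth is unknown and precision rests on the spread between mice. The labels give each mouse its own animal number.

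The 17267 genes whose mean TPM reached 0.5 were fitted with limma 3.58.1 (R 4.3.3) on the log2(TPM + 1) scale, all 24 libraries together, 1 mean for each group and a variance trend; fold changes of low genes are understated on this scale. Tests are two-sided, with Benjamini-Hochberg adjustment over all genes tested. The step was tested on simulated data.

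Members and gene lists were chosen with earlier results of these data known. Named are all 10 members, Hapln2, Hapln3, up to 4 called genes per list with the largest difference after injury and up to 2 per drug comparison, and 3 most alike genes per member, of which 1 is not reported here. Sox6 and Timp3 were named after their values were seen. Alternatives were another pseudocount, filter, scaling, table, variance model, sample set and call rule, and leaving out each mouse.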

Additional observations from a re-analysis of the deposited data

Results flagged for a closer look

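In 50 sets of values (10 genes in 5 groups), 2 held a mouse whose gap to its nearest neighbour was large for the range of its group by Dixon's limit, and chance gives about 1 in 20. Ncan in sham mouse J07 was 102 TPM against 94.5 TPM in the next mouse and 93.2 TPM in the lowest, a gap of 0.843 of the range. Ptprz1 in PLX3397+Anakinra mouse J09 was 95 TPM, against 104.4 TPM in the next mouse and 108 TPM in the highest, a gap of 0.728 of the range.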

How the results depend on the processing

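The injury calls held at 7 of 10 genes in vehicle, PLX3397 and PLX3397+Anakinra against sham when each mouse was left out (lowest 7, highest 7), and at 6 to 7 for Anakinra. Under the study's limits on p, fold and difference, the counts against sham were 2 in each of the 4 comparisons, since Tnc and Vcan alone passed a fold above 2, and 0 for PLX3397+Anakinra against vehicle and against Anakinra. The drug calls were less firm. With both drugs against vehicle the count of 1 became 2 after median-ratio scaling and without a variance trend, and ran from 1 to 3 when a mouse was left out. Against Anakinra the count of 1 became 2 with a filter at a mean of 5 TPM, 2 in the fit of only the compared groups and 0 after median-ratio scaling, and ran from 0 to 3 when a mouse was left out. For Anakinra against vehicle it ran from 0 to 1. At an unadjusted p below 0.05 the counts were 1 for PLX3397, 3 for Anakinra and 5 for both drugs against vehicle, 1 and 5 for both drugs against PLX3397 and against Anakinra, and 1 for the interaction, beside shares of all genes that lay between 6.71% and 29.7%. The cause of these changes was not tested beyond the construction of each alternative.

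With the animal number as a block over the 3 numbers that vehicle and PLX3397 mice share (6 mice), 0 members were called, as without the block in the same mice. Deviations of same-numbered mice correlated at 0.17, -0.13 and -0.07 over the genes tested. Over all vehicle and PLX3397 pairs the values ran from -0.41 to 0.40. With 3 shared numbers, whether the numbers pair the mice cannot be told. Vehicle and PLX3397+Anakinra mice share 1 number, 17 (correlation 0.32), too few for a block. Rescaling by median ratios moved the median of all genes by at most 0.03 on the log2 scale. No member that was called changed its direction in any alternative.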
